A study of Mus musculus with 12 samples.

Results

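The genes described here are 8 genes of neutrophil granules and of calprotectin (Ctsg, Mpo, Prtn3, Ltf, Camp, Ngp, S100a8 and S100a9), followed in cultured mouse cartilage. They were chosen by symbol, and every array row that carries one of the symbols was used. The 8 genes have 10 of the 46632 rows of the bead-array table, since Mpo has 3 rows and each of the others has 1. A row is 1 probe, a short sequence that binds 1 transcript, and its brightness rises with the amount of that transcript in the RNA.

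Femoral head cartilage was taken at an age of 3 weeks from mice named TS-4/5∆cat, in which the catalytic domains of ADAMTS-4 and ADAMTS-5 are deleted, and was kept in culture for 3 days without treatment, with IL-1α at 10 ng/mL, or with retinoic acid at 10 µM. All 12 arrays carry both deletions, so wild-type cartilage was not part of the comparison. Each treatment has 4 arrays, 2 from the line labelled Donut in batch 1 and 2 from the line labelled Gertrude in batch 2. Line and batch divide the arrays in the same way and cannot be told apart. The labels place 4 hips in each well and describe a day in serum before treatment, while the methods describe serum-free medium and 3 unpooled mice per treatment, so which arrays are separate mice is not settled and the p-values measure the spread between these arrays. The explants are whole femoral heads, and nothing in the labels describes removal of bone marrow or blood. Chondrocyte markers were bright, with summed untreated levels of 81700 to 108000 on the linear scale over 13 kept genes.

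Neutrophils store their enzymes and antimicrobial proteins in granules that are filled in order while the cell matures in the bone marrow. Azurophil granules are filled first and hold myeloperoxidase and the serine proteases, specific granules are filled later and hold lactoferrin, cathelicidin and Ngp, and calprotectin, the S100a8 and S100a9 pair, fills the cytosol of the mature cell. Messenger RNA for granule proteins is mostly made by precursors in the marrow, and cartilage itself has no blood vessels. Retinoic acid is known for its action on the maturation of granulocyte precursors, and IL-1 for raising granulocyte growth factors and neutrophil-attracting chemokines.

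The sequences before the start sites of 4 of the genes are shown because their responses to retinoic acid took different courses, described further on. Ctsg and the brighter Mpo rows were lower with retinoic acid in both batches, and the dimmest Mpo row only in batch 1. Prtn3 and S100a8 were lower in batch 1 and higher in batch 2. Each sequence is the 250 bases before the annotated start in RefSeq (GRCm38.p6), read 5′ to 3′ on the strand of the gene, and the capitals mark GAGGAA, the core letters bound by the myeloid factor PU.1, or its reverse complement TTCCTC.
Mpo, chr11:87793534-87793783, plus strand: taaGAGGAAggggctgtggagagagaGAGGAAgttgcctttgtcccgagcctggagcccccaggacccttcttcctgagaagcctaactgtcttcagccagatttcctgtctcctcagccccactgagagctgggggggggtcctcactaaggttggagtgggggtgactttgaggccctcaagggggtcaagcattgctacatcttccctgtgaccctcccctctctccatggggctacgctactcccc
Ctsg, chr14:56102575-56102824, minus strand: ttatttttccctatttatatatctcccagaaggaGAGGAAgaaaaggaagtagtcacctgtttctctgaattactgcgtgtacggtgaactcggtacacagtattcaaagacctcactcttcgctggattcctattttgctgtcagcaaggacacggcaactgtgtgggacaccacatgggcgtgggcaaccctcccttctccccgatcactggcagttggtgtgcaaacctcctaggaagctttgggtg
Prtn3, chr10:79879417-79879666, plus strand: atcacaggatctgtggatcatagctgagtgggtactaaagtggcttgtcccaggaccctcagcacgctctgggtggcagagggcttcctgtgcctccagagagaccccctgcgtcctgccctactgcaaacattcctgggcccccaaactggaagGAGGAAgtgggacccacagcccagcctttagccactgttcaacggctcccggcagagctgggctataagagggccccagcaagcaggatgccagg
S100a8, chr3:90668821-90669070, plus strand: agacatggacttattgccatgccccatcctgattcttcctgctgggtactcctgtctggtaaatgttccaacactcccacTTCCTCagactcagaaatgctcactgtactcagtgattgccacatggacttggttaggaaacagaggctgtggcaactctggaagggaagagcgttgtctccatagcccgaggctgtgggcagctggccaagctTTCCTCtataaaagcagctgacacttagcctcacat
GAGGAA was found on either strand in the window of 5 of the 8 genes, these 4 and Ltf, against 23.3% of 32851 RefSeq promoters of the same length. Mpo and S100a8 have 2 copies each and Ctsg, Prtn3 and Ltf have 1. The C/EBP letters TTGCNNAA were found before 3 of the 8 genes (Ltf, Ngp and S100a9) and in 9.56% of all promoters. The NF-kB letters GGGNNTTTC were found only before S100a9 among the 8 genes, and in 3.72% of all promoters. AGGTCA, the half-site of retinoic acid receptors, was found only before Ltf among the 8, and in 14% of all promoters. No motif matches overlapped one another in these windows. All 4 genes printed hold the PU.1 letters, while Camp, Ngp and S100a9 do not. Ngp was also lower in both batches, and S100a9 was also lower in batch 1 and higher in batch 2. Any relation of these letters to the retinoic acid changes was not tested. A match is a description of the letters and not of binding.

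S100a8 and S100a9 are neighbours on chromosome 3, and Prtn3 lies next to Elane, the neutrophil elastase gene, on chromosome 10. Ltf, Camp and Ngp are all on chromosome 9 and do not neighbour each other.

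Values are log2 intensities after background correction and normalization of all arrays together. A row was kept when it was detected above background (detection p under 0.05) on at least 4 of the 12 arrays, which left 18200 rows. All 10 member rows were kept. They were detected on all 12 arrays, except for Ctsg, detected on 10, and the Mpo row ILMN_2719256, detected on 11. An array detected 13786 to 19485 rows, with fewer in batch 1 than in batch 2. Arrays of the same treatment and batch correlated at 0.983 to 0.995 across kept rows, and arrays that shared a treatment but not a batch at 0.868 to 0.902. For this reason each gene is given within each batch. In bulk RNA, fewer cells of a type and less of an RNA in each cell cannot be told apart.

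Retinoic acid lowered the granule genes most strongly in batch 1. Over both batches, limma called 7 of the 10 member rows lower with retinoic acid than untreated at an adjusted p under 0.05, for 5 of the 8 genes (Ctsg, Mpo, Ltf, Camp and Ngp), and none higher. Of all kept rows, 17.1% were called lower. The median log2 change of the 10 rows was -0.80, against 0.02 for all kept rows. Within batch 1, all 10 rows of the 8 genes were lower, where 16.4% of all rows were. Within batch 2, 4 rows of Ctsg, Mpo and Ngp were lower, where 16.1% of all rows were, and 3 rows were higher (Prtn3, S100a8 and S100a9), where 16.7% of all rows were. Leaving out untreated replicate 1 or 2 or retinoic acid replicate 2 of batch 1 reduced the 7 calls over both batches to 4, and Ctsg, Ngp and the brighter Mpo rows kept their calls on leaving out any array. With all 46632 rows tested and no detection filter, 2 of the 7 calls over both batches were left. In batch 2 the 7 calls became 4 without untreated replicate 1 or retinoic acid replicate 2 and 3 without retinoic acid replicate 1, and Ctsg, Prtn3 and S100a8 were called on leaving out any array.

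**Figure D1:**
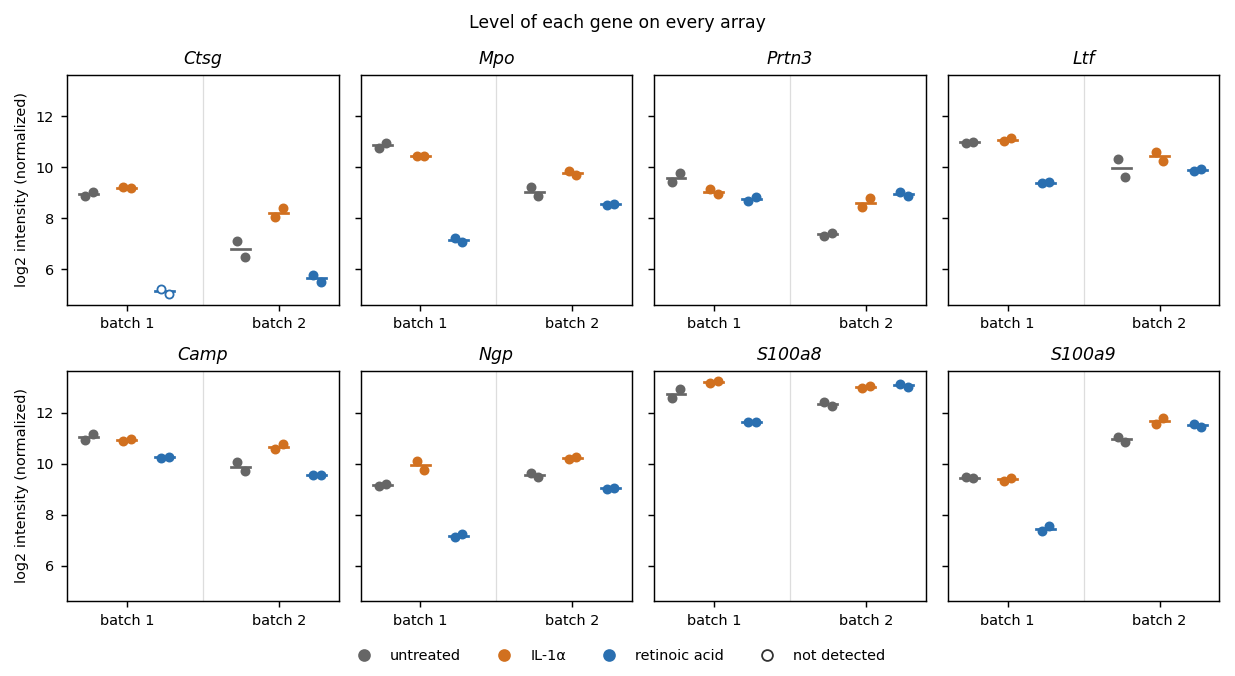
Normalized log2 intensity (y axis) of the brightest row of each of the 8 genes on all 12 arrays, with batch 1 on the left and batch 2 on the right of each panel. Points are arrays, bars are means of 2 arrays, and open points are below detection; the retinoic acid points of batch 1 lie below the untreated points for every gene, while those of Prtn3, S100a8 and S100a9 in batch 2 lie above them.

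Mpo encodes myeloperoxidase, which makes hypochlorous acid and is the marker enzyme of azurophil granules. In batch 1 its row ILMN_1249030 had log2 intensities of 10.76 and 10.94 untreated, 10.45 and 10.44 with IL-1α, and 7.24 and 7.06 with retinoic acid. In batch 2 the values were 9.22 and 8.88 untreated, 9.85 and 9.69 with IL-1α, and 8.52 and 8.57 with retinoic acid. Retinoic acid arrays were the lowest in each batch, and IL-1α arrays were below the untreated ones in batch 1 and above them in batch 2. The level with retinoic acid was 13-fold lower than untreated in batch 1 (log2 change -3.70 ± 0.15 SE, adjusted p = 6.3e-09) and 1.41-fold lower in batch 2 (-0.50 ± 0.15 SE, adjusted p = 0.0229). On leaving out 1 array, the batch 2 change of this row ranged from -0.65 to -0.35. Over the 4 arrays of each treatment the change was -2.10 ± 0.47 (SE, adjusted p = 0.0034).

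The other Mpo rows also fell with retinoic acid in batch 1. Row ILMN_2600421 was at 10.24 and 10.43 untreated and 6.26 and 6.35 with retinoic acid in batch 1, a 16.3-fold fall, and at 8.25 and 8.12 against 7.78 and 7.84 in batch 2, a 1.30-fold difference. That smaller difference had an adjusted p of 0.0486, and it lost its call on leaving out any 1 array. Row ILMN_2719256 was dimmer, with a 3.03-fold fall in batch 1 and a log2 difference of 0.06 ± 0.17 (SE, adjusted p = 0.85) in batch 2. It was below detection on 1 retinoic acid array of batch 1. With IL-1α in batch 1 this row differed from untreated by 0.35 ± 0.17 (SE, adjusted p = 0.13). There, row ILMN_1249030 had -0.40 (adjusted p = 0.055) and row ILMN_2600421 had -0.73 (adjusted p = 0.0012). Across the 12 arrays, centred within batches, the rows correlated with each other at 0.995, 0.919 and 0.907.

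Ctsg encodes cathepsin G, a serine protease stored beside myeloperoxidase. In batch 1 it had log2 intensities of 8.86 and 9.01 untreated, 9.22 and 9.18 with IL-1α, and 5.25 and 5.03 with retinoic acid. In batch 2 it had 7.10 and 6.47 untreated, 8.05 and 8.40 with IL-1α, and 5.79 and 5.52 with retinoic acid. The 4 retinoic acid arrays were below all other arrays. Both retinoic acid arrays of batch 1 were not above background, so the fall there is a bound. Ctsg was at least 12-fold lower than untreated, taking the lowest detected signal of each array as the floor. The limma change fitted to the undetected values was -3.79 ± 0.20 (SE, adjusted p = 4.0e-08), and the bound itself was not tested. In batch 2 Ctsg was 2.19-fold lower (-1.13 ± 0.20 SE, adjusted p = 0.00094). IL-1α raised it 2.71-fold in batch 2 (1.44 ± 0.20 SE, adjusted p = 0.00033), and in batch 1 the difference was 0.26 ± 0.20 (SE, adjusted p = 0.34).

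Prtn3, proteinase 3, is a serine protease of the same granules, and its retinoic acid values departed from those of Ctsg and Mpo. In batch 1 it had log2 intensities of 9.43 and 9.77 untreated, 9.15 and 8.94 with IL-1α, and 8.68 and 8.84 with retinoic acid. In batch 2 it had 7.33 and 7.44 untreated, 8.44 and 8.78 with IL-1α, and 9.02 and 8.87 with retinoic acid. Untreated arrays were the highest in batch 1 and the lowest in batch 2. Retinoic acid lowered it 1.78-fold in batch 1 (-0.84 ± 0.17 SE, adjusted p = 0.0022) and raised it 2.95-fold in batch 2 (1.56 ± 0.17 SE, adjusted p = 1.8e-05). The batch 1 call was lost on leaving out 1 of the 12 arrays, with an adjusted p of 0.053, and the batch 2 call on none. IL-1α moved it the same way in each batch, 1.46-fold down (adjusted p = 0.0241) and 2.33-fold up (adjusted p = 0.00030). Over both batches the opposite changes left 0.36 ± 0.37 (SE, adjusted p = 0.49) for retinoic acid and 0.34 ± 0.37 (SE, adjusted p = 0.53) for IL-1α.

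Ltf encodes lactoferrin, the iron-binding protein of specific granules. In batch 1 it had log2 intensities of 10.96 and 11 untreated, 11.03 and 11.14 with IL-1α, and 9.39 and 9.41 with retinoic acid. Its batch 2 values were 10.34 and 9.61 untreated, 10.61 and 10.23 with IL-1α, and 9.87 and 9.93 with retinoic acid. The retinoic acid arrays of batch 2 lay between the untreated ones. Ltf fell 2.99-fold with retinoic acid in batch 1 (-1.58 ± 0.17 SE, adjusted p = 1.9e-05), and in batch 2 the difference was -0.07 ± 0.17 (SE, adjusted p = 0.79).

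Camp encodes the precursor of cathelicidin, an antimicrobial peptide of specific granules. Its log2 intensities in batch 1 were 10.93 and 11.14 untreated, 10.88 and 10.98 with IL-1α, and 10.23 and 10.26 with retinoic acid. In batch 2 they were 10.06 and 9.72 untreated, 10.56 and 10.78 with IL-1α, and 9.57 and 9.56 with retinoic acid. Retinoic acid arrays were the lowest in each batch. The difference from untreated was 1.73-fold in batch 1 (-0.79 ± 0.15 SE, adjusted p = 0.00175) and did not pass the test in batch 2 (-0.32 ± 0.15 SE, adjusted p = 0.14).

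Ngp, neutrophilic granule protein, is a cystatin-related protein of specific granules. It had log2 intensities of 9.14 and 9.20 untreated, 10.10 and 9.75 with IL-1α, and 7.11 and 7.26 with retinoic acid in batch 1. Its batch 2 values were 9.65 and 9.47 untreated, 10.18 and 10.27 with IL-1α, and 9.0 and 9.05 with retinoic acid. In each batch the order was IL-1α, untreated, retinoic acid, with no overlap. Retinoic acid lowered it 3.95-fold in batch 1 (-1.98 ± 0.16 SE, adjusted p = 1.2e-06) and 1.45-fold in batch 2 (-0.53 ± 0.16 SE, adjusted p = 0.0205). IL-1α raised it 1.69-fold in batch 1 (adjusted p = 0.0027) and 1.58-fold in batch 2 (adjusted p = 0.010). On leaving out 1 array, the batch 2 log2 change ranged from -0.66 to -0.41 with retinoic acid. With IL-1α the log2 change ranged from 0.53 to 0.99 in batch 1 and from 0.54 to 0.79 in batch 2. No IL-1α array overlapped an untreated one across the batches (exact permutation p = 0.0286, two-sided, the smallest that 4 against 4 allow). The permutation moved arrays freely between batches, so it takes no account of the batch. Limma over both batches gave 0.71 ± 0.27 (SE, adjusted p = 0.065).

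S100a8 and S100a9 encode the subunits of calprotectin, which binds zinc, manganese and calcium and is released at sites of inflammation. S100a8 had log2 intensities of 12.55 and 12.92 untreated, 13.15 and 13.22 with IL-1α, and 11.64 and 11.61 with retinoic acid in batch 1. In batch 2 it had 12.42 and 12.24 untreated, 12.97 and 13.04 with IL-1α, and 13.13 and 13.01 with retinoic acid. Its highest value was below the top of the normalized scale, 14.24. Retinoic acid arrays were thus the lowest in batch 1, and in batch 2 they lay above the untreated arrays and overlapped those with IL-1α. The change with retinoic acid was 2.16-fold down in batch 1 (-1.11 ± 0.15 SE, adjusted p = 9.8e-05) and 1.68-fold up in batch 2 (0.74 ± 0.15 SE, adjusted p = 0.0020). Each of these calls held on leaving out any array.

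S100a9 followed the same course at a batch difference of its own. It had log2 intensities of 9.46 and 9.43 untreated, 9.33 and 9.46 with IL-1α, and 7.35 and 7.54 with retinoic acid in batch 1. Its batch 2 values were 11.05 and 10.86 untreated, 11.56 and 11.78 with IL-1α, and 11.55 and 11.45 with retinoic acid. Every batch 2 array was above every batch 1 array. Retinoic acid lowered it 4.00-fold in batch 1 (-2.0 ± 0.15 SE, adjusted p = 6.5e-07) and raised it 1.46-fold in batch 2 (0.54 ± 0.15 SE, adjusted p = 0.0132), and the batch 2 call was lost on leaving out 3 of the 12 arrays. IL-1α raised S100a8 in both batches, 1.36-fold (adjusted p = 0.0338) and 1.6-fold (adjusted p = 0.0063), and S100a9 in batch 2, 1.64-fold (adjusted p = 0.0045). The S100a8 call was lost without untreated replicate 1 or either IL-1α array in batch 1, and without IL-1α replicate 2 in batch 2. For S100a9 in batch 1 the IL-1α difference was -0.05 ± 0.15 (SE, adjusted p = 0.83).

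**Figure D2:**
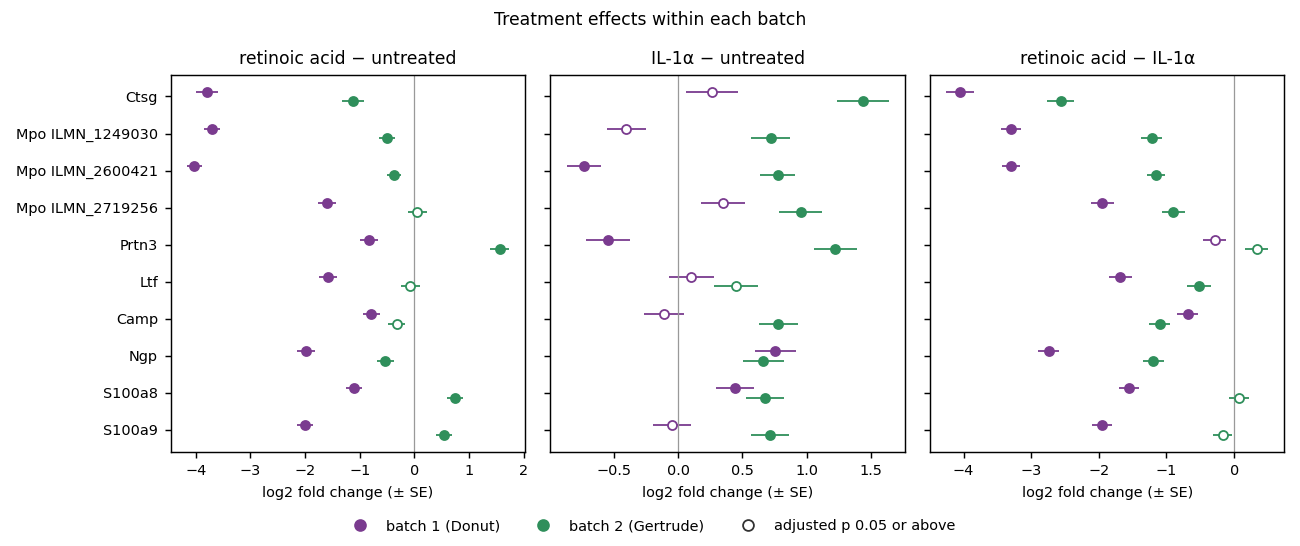
Log2 fold change with its standard error (x axis) of all 10 member rows for each pair of treatments, in batch 1 (purple) and batch 2 (green), from the limma fit with 2 arrays per treatment and batch. Filled points have an adjusted p under 0.05; in the retinoic acid against untreated panel all 10 batch 1 points are filled and below 0, and the Prtn3, S100a8 and S100a9 points of batch 2 are above 0.

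With IL-1α the members moved mainly in batch 2. Over both batches, limma called 0 of the 10 member rows against untreated, where 29.3% of all kept rows were called in either direction, and 2 rows had an unadjusted p under 0.05 in the same fit. Leaving out 1 array gave 0 to 2 calls, with 1 or 2 without untreated replicate 1 or retinoic acid replicate 1 of batch 1, or without IL-1α replicate 1 or either retinoic acid array of batch 2. Within batch 2, 9 rows of 7 genes were higher with IL-1α, all but Ltf, where 9.82% of all rows were called higher. Within batch 1, 2 rows were higher (Ngp and S100a8), where 18.2% of all rows were, and 2 were lower (Prtn3 and Mpo row ILMN_2600421), where 17.5% of all rows were. Without IL-1α replicate 2 of batch 2 the 9 calls became 4, in Ctsg, Prtn3 and the Mpo rows ILMN_2600421 and ILMN_2719256. Without IL-1α replicate 1 or 2 of batch 1 the 4 calls became 2.

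Retinoic acid was also compared with IL-1α. Over both batches 7 rows of 5 genes were lower with retinoic acid (Ctsg, Mpo, Ltf, Camp and Ngp), where 15.8% of all rows were, and no row was higher. In batch 1, 9 rows of 7 genes were lower, all but Prtn3, where 17.4% of all rows were. In batch 2, 7 rows of Ctsg, Mpo, Ltf, Camp and Ngp were lower, where 14.6% of all rows were. For Prtn3 the difference was -0.29 ± 0.17 (SE, adjusted p = 0.22) in batch 1 and 0.34 ± 0.17 (SE, adjusted p = 0.17) in batch 2. S100a8 and S100a9 were 2.94-fold and 3.86-fold lower in batch 1, while in batch 2 their log2 differences were 0.07 ± 0.15 (SE, adjusted p = 0.78) and -0.17 ± 0.15 (SE, adjusted p = 0.43). All 3 comparisons share arrays, so they are not separate evidence.

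The difference of the retinoic acid effect between the batches was then tested as a term of its own. Limma called it for 9 of the 10 member rows and 7 of the 8 genes, where 2.70% of all kept rows were called, and all 9 were less negative or more positive in batch 2. The size ran from 1.45 ± 0.22 (SE, adjusted p = 0.0042) for Ngp to 3.65 ± 0.19 (SE, adjusted p = 3.7e-06) for Mpo row ILMN_2600421. Camp was the gene not called, at 0.47 ± 0.22 (SE, adjusted p = 0.33). Between 8 and 9 rows were called on leaving out any array. For IL-1α against untreated the batches differed for 5 rows of Ctsg, Mpo, Prtn3 and Camp, where 5.32% of all rows did, and leaving out 1 array gave 2 to 6 calls, with 2 or 3 calls without either untreated or either IL-1α array of batch 1, or without untreated replicate 2, IL-1α replicate 1 or IL-1α replicate 2 of batch 2. For retinoic acid against IL-1α they differed for 8 rows of 6 genes, where 9.76% of all rows did, and for 5 rows without IL-1α replicate 1 of batch 2.

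**Figure D3:**
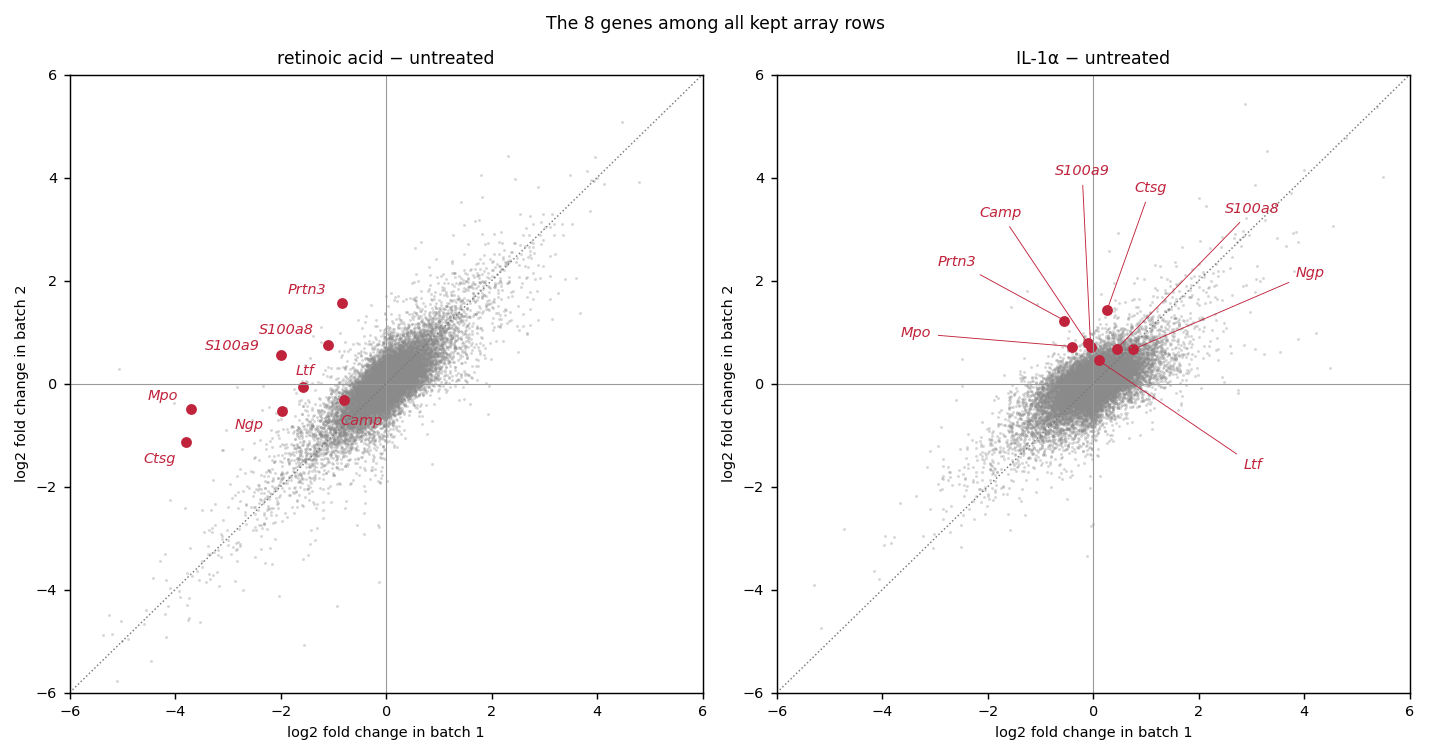
Log2 fold change in batch 1 (x axis) against batch 2 (y axis) of all 18200 kept rows (grey points) and the brightest row of each of the 8 genes (red), for retinoic acid and for IL-1α against untreated. In the retinoic acid panel all 8 red points lie above the dotted line of equal change and left of 0, with Mpo and Ctsg farthest left.

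The untreated arrays already differed between the batches. In batch 2, 8 rows of 6 genes were lower than in batch 1, where 36.0% of all rows were, and 2 rows were higher (Ngp and S100a9), where 29.8% of all rows were. Among the azurophil genes the log2 differences were -2.15 for Ctsg, -2.21 for Prtn3, and -1.80, -2.15 and -0.90 for the Mpo rows ILMN_1249030, ILMN_2600421 and ILMN_2719256. Ltf and Camp were lower by -1.01 and -1.15. S100a8 differed by -0.41 (adjusted p = 0.0276), Ngp by 0.39 (adjusted p = 0.0349) and S100a9 by 1.51 (adjusted p = 5.8e-07), against a median of -0.11 for all kept rows. Treatment effects in each batch are measured from these different starting levels. When each batch was normalized by itself, S100a8 became 0.33 and Mpo row ILMN_2719256 became 0.18, and 6 of the 10 rows were called.

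Other genes of the neutrophil were read from lists of known function, in which the brightest kept genes and a few others chosen with earlier results known are named. Of all kept rows, 18.2% were called higher and 17.1% lower with retinoic acid, and 15.2% higher and 14.1% lower with IL-1α. The counts in the lists, marker lists included, are descriptions to be read beside those shares, and several lie near them. Of 24 other granule genes on the array, 16 were kept, and with retinoic acid 8 fell, 3 rose and 5 did not pass the test, with a median log2 change of -0.54 against 0.02 for all kept rows. With IL-1α 10 rose and 1 fell, with a median of 0.79 against 0.02. Arg2 counts among the risers with both treatments. It was detected on 0 of 4 untreated arrays and on 2 of 4 with each treatment, so it was kept only through treated arrays. Lcn2, the siderophore-binding lipocalin, which chondrocytes also make, changed by -0.93 ± 0.31 (SE, adjusted p = 0.0296) with retinoic acid and by 1.04 ± 0.31 (SE, adjusted p = 0.0217) with IL-1α. Hp, haptoglobin, went the same ways, by -0.76 (adjusted p = 0.0034) and 1.93. Mmp9, gelatinase B, rose with retinoic acid by 1.58 ± 0.14 (SE, adjusted p = 1.8e-06), and Ctsc, the peptidase that activates granule serine proteases, rose by 1.38 ± 0.21 (SE, adjusted p = 0.00025). Lyz2, a lysozyme of macrophages and neutrophils, had -0.01 (adjusted p = 0.97) with retinoic acid and fell by 1.47 with IL-1α. Mmp8 and Chil3 were on the array and not kept.

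The list gene Elane has no row under that symbol. The array has 1 row named Ela2, an older symbol that RefSeq gives for both Elane and Cela2a, and a separate row named Ela2a, so the gene behind Ela2 is not certain; it was looked at after the lists were read. Its log2 intensities in batch 1 were 9.55 and 9.72 untreated, 9.79 and 9.75 with IL-1α, and 6.72 and 6.88 with retinoic acid. In batch 2 they were 7.84 and 7.77 untreated, 9.44 and 9.63 with IL-1α, and 7.56 and 7.90 with retinoic acid. Retinoic acid thus lowered it in batch 1 (-2.83 ± 0.15 SE, adjusted p = 3.5e-08) and in batch 2 the difference was -0.07 ± 0.15 (SE, adjusted p = 0.75), while IL-1α raised it in batch 2 by 1.73 ± 0.15 (SE, adjusted p = 6.1e-06).

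Some list genes changed in opposite directions with retinoic acid in the different batches. Cebpe, the transcription factor needed for specific granule formation, changed by -1.24 ± 0.15 (SE, adjusted p = 3.8e-05) in batch 1 and by 1.1 ± 0.15 (SE, adjusted p = 0.00011) in batch 2, and the difference between batches was 2.34 ± 0.21 (SE, adjusted p = 0.00015). Ncf4, a subunit of the phagocyte oxidase, changed by -0.59 (adjusted p = 0.0143) and 0.56 (adjusted p = 0.0192). Retnlg, a resistin-like protein of neutrophils named here after its values were seen, changed by -1.38 (adjusted p = 1.4e-05) and 0.92 (adjusted p = 0.00041), with a difference of 2.30 ± 0.21 (SE, adjusted p = 0.00015). Slpi, a secreted inhibitor of granule proteases, and Lcn2 differed the other way, with larger falls in batch 2. Slpi changed by -1.48 and -3.33, with an adjusted p of 0.0017 for the difference, and Lcn2 by -0.22 and -1.65, with an adjusted p of 0.0019.

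**Figure D4:**
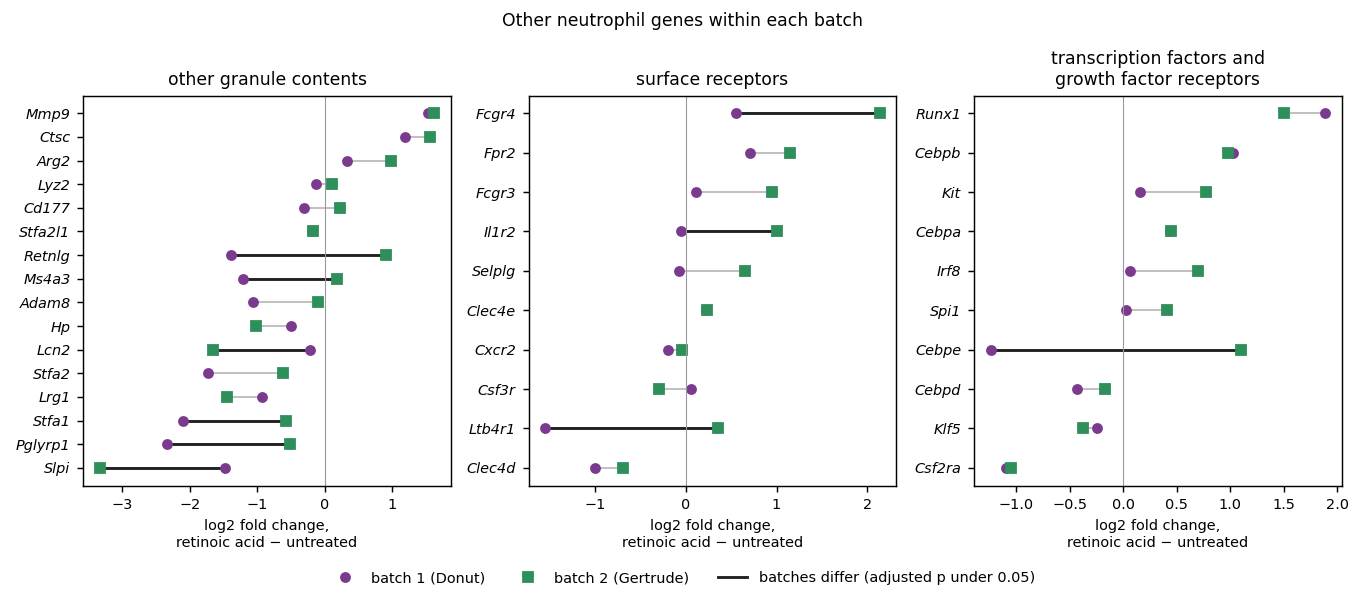
Log2 fold change of retinoic acid against untreated (x axis) within batch 1 (purple circles) and batch 2 (green squares) for the kept genes of 3 lists, other granule contents, surface receptors, and transcription factors with growth factor receptors. Dark lines join genes whose change differed between the batches at an adjusted p under 0.05; Cebpe and Retnlg lie below 0 in batch 1 and above 0 in batch 2.

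Among the 10 kept genes of transcription factors and progenitor growth factor receptors, 3 rose with retinoic acid (Cebpa, Cebpb and Runx1), 1 fell (Csf2ra) and 6 did not pass the test. Cebpb, a C/EBP factor of emergency granulopoiesis, rose by 1.00 with retinoic acid and by 1.39 with IL-1α. Spi1, which encodes PU.1, changed by 0.22 (adjusted p = 0.41) with retinoic acid and by 0.58 (adjusted p = 0.0371) with IL-1α. Gfi1 was not kept. Of 10 kept surface receptor genes, 2 rose (Fcgr4 and Fpr2) and 1 fell with retinoic acid, and 4 rose with IL-1α. Among those 4, Il1r2 was detected on 0 of 4 untreated arrays and on 2 of 4 with each treatment. It was thus kept only through treated arrays. Fcgr4, an activating Fc receptor, changed by 0.56 in batch 1 and 2.13 in batch 2. The defining receptors Csf3r and Cxcr2 were detected on 7 and 5 of the 12 arrays and did not pass the test with either treatment, Itgam and Fpr1 were detected on 0, and Ly6g has no row. Among 5 kept oxidase genes, 1 (Rac2) was called higher with each treatment, a share near that of all rows.

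The growth factors and chemokines that act on neutrophils responded to IL-1α, with 4 of 7 kept genes called higher and 1 lower. One of the 4, Csf3, granulocyte colony-stimulating factor, was detected on all 4 IL-1α arrays and on 0 of the 4 untreated and 0 of the 4 retinoic acid arrays, so it was kept only through the IL-1α arrays and its test is not given. Its mean log2 intensity was 6.74 with IL-1α, 4.56 untreated and 4.62 with retinoic acid. Cxcl1, a ligand of Cxcr2, rose by 3.47 ± 0.32 (SE, adjusted p = 6.6e-06). Cxcl12, the chemokine that holds neutrophils in marrow, rose by 1.83 ± 0.24 (SE, adjusted p = 6.5e-05) with retinoic acid and fell by 1.27 with IL-1α (adjusted p = 0.0018). With retinoic acid 3 of the 7 genes were called higher in all, Cxcl12, Ccl3 and Cxcl15. Cxcl15 was detected on all 4 retinoic acid arrays and on 0 of the 4 untreated and 0 of the 4 IL-1α arrays. It was therefore kept only through the retinoic acid arrays, and its test is not given. Of 7 kept genes in the list of receptors and co-receptors for calprotectin, 5 rose and none fell with retinoic acid. They were Tlr4, Cd14, Ly96, Bsg and Emcn, and Emcn is an endothelial sialomucin rather than a known calprotectin receptor. Tlr4 rose by 1.19 with retinoic acid and 0.86 with IL-1α. Ager, the receptor for advanced glycation end products, had -0.28 (adjusted p = 0.10) with retinoic acid and 0.52 (adjusted p = 0.0071) with IL-1α.

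Of 6 kept inhibitors of granule serine proteases, 3 fell and none rose with retinoic acid (Slpi, Serpina3n and Serpina1b). Slpi changed by -2.41 with retinoic acid and by 2.54 with IL-1α, Serpina3n fell by 3.17 with retinoic acid, and Serpinb1a had -0.25 (adjusted p = 0.30). Of the 9 other S100 genes kept, 3 fell with retinoic acid, and those past a 2-fold change were S100a4 and S100b. S100a4 changed by -1.27 and was detected on 4 of 4 untreated and 2 of 4 retinoic acid arrays. S100b was detected on 2 of 4 untreated arrays, both of batch 2, and on 0 of 4 with retinoic acid, so no size is given for it. With IL-1α S100a4 changed by -2.21 and was detected on 2 of 4 arrays, both of batch 2. Both S100a4 changes thus rest partly on signal below detection.

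Markers of other blood and marrow cells moved in their own ways, and their part in the member results was not tested. The 3 azurophil members summed to 2890 to 3360 on the linear scale on untreated arrays of batch 1 and 600 to 624 with retinoic acid, and to 733 to 893 and 893 to 943 in batch 2. The batch 2 sums join opposite changes. There, mean log2 levels went from 6.79 untreated to 5.66 with retinoic acid for Ctsg. They went from 9.05 to 8.55 for Mpo row ILMN_1249030 and from 7.38 to 8.94 for Prtn3. Of 11 kept monocyte and macrophage genes 8 rose and none fell with retinoic acid, and their sum went from 3280 to 3840 untreated to 6210 to 6410 in batch 1 and from 2330 to 2780 to 4540 to 5310 in batch 2. The brightest of them, Cd68, C1qb and C1qc, rose by 0.73, 1.51 and 1.20. Of 8 kept erythroid genes 1 fell with retinoic acid and none rose over both batches. In batch 1, 3 of the 8 were called lower, and the sum of all 8 was 21900 to 23400 untreated and 19100 to 20300 with retinoic acid. In batch 2, 1 was called lower and the sum was 27500 to 28000 untreated and 30000 to 32100 with retinoic acid, and the effect differed between batches for 2 of the 8, both more positive in batch 2. Both kept eosinophil genes, Prg2 and Ear2, were called higher with IL-1α in each batch, Prg2 by 3.23 in batch 1 and 0.57 in batch 2 and Ear2 by 3.53 and 0.61, and both differed between batches. With retinoic acid Prg2 changed by -1.23 in batch 1 and -0.86 in batch 2 and Ear2 did not pass the test in either, while over both batches neither was called. Of 10 mast cell and basophil genes none was kept, with Mcpt8, the neighbour of Ctsg, detected on 2 arrays and Cpa3 on 0. Of the 8 kept B-lineage genes 2 rose and 1 fell with retinoic acid, of 2 kept T and NK cell genes 1 fell, and of 3 kept megakaryocyte genes 1 rose and 1 fell. Of 6 kept osteoclast genes 3 rose and none fell with retinoic acid. Of 13 kept chondrocyte genes 12 fell and none rose with retinoic acid. Of 6 kept osteoblast and bone matrix genes 5 fell and 1 rose, both kept adipocyte genes fell, 2 of 8 endothelial genes rose and 1 fell, and 1 of 9 cell division genes rose with retinoic acid.

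The rows most like each member were ranked by Pearson correlation over the 12 arrays after centring each batch, which are values shared with treatment. Ctsg was most like Sbsn (0.981) and Itpr3 (0.980), Mpo like Golga2 (0.975), Prtn3 like Synpo2 (0.925), and Camp like 9430008C03Rik (0.976). Ngp was most like H2-Eb1 (0.985), and Ltf like Itpr3 (0.959) and Mpo (0.959). S100a8 was most like Nfe2 (0.973) and Ncf4 (0.962), and S100a9 was among the 5 most similar rows (0.928), and S100a9 was most like Fcnb, a ficolin of myeloid cells (0.963). Among the members themselves, Ctsg and Mpo correlated at 0.961, and Prtn3 with Ctsg at 0.229. By batch, Prtn3 correlated with Ctsg at 0.686 in batch 1 and -0.122 in batch 2. Its values with Mpo were 0.780 in batch 1 and -0.124 in batch 2. Prtn3 and S100a8 correlated at 0.625 over the 12 arrays, at 0.552 over the 6 of batch 1 and at 0.968 over the 6 of batch 2.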

How the data were processed

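Total RNA of 12 explant cultures was labelled with biotin and hybridised to Illumina mouse bead arrays. The authors deposited 1 table of linear intensities, with neither background subtraction nor normalization per its header, and a detection score per value that rises with intensity. The detection p-value was taken as 1 minus the score deposited. The labels name limma for the submitters' processing, with no version. Every column was matched to a labelled array.

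Intensities were corrected and quantile normalized with neqc (offset 16) in limma 3.58.1 (R 4.3.3) and put on the log2 scale. Rows were kept where 4 or more of the 12 arrays had a detection p under 0.05, and 28432 were removed. Following the methods, lmFit and eBayes were run with treatment and a term for each replicate number within each batch. Effects within batches, and their difference, came from a fit with treatment by batch terms. Untreated arrays were compared between batches without that term. Adjusted p-values are Benjamini-Hochberg over all 18200 kept rows, called under 0.05. The exact test is a two-sided permutation over 70 arrangements that does not keep arrays within their batch. The precision is limited by 2 arrays per treatment and batch. Whether replicate numbers pair the arrays is not settled. Deviations of same-numbered arrays correlated at -0.108 to 0.391, highest between IL-1α and retinoic acid in batch 2. With only 2 arrays per treatment and batch, these values cannot decide it.

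The genes and lists were chosen with earlier results of these data known. Named were all member rows, up to 4 brightest kept genes of each neutrophil list with a few others, other S100 genes past a 2-fold change, and the 5 most similar rows. Fits were tested on simulated data of 18200 rows with 200 changed. The fit recovered 98% for retinoic acid and 97% for IL-1α, with median errors of 0.062 and 0.065. Those simulated effects were equal in both batches, unlike the retinoic acid effects called different in 9 of the 10 member rows. Their recovery therefore does not describe rows whose effect differs between batches. For the difference between batches it recovered 26% of changes of 1 and 84% of changes of 2 on the log2 scale. The member rows had larger SEs over both batches, from 0.17 to 0.52. Recovery at SEs of that size was not tested separately. Alternatives were other background, scaling, offset, filter and block settings, a fold limit, and leaving out each array.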

Additional observations from a re-analysis of the deposited data

Results flagged for a closer look

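The treatment effect differed between the batches, by the test of the difference itself, for the rows given here, each as the log2 effect in batch 2 minus that in batch 1. For retinoic acid against untreated the differences were 2.66 for Ctsg, 3.20, 3.65 and 1.66 for the Mpo rows ILMN_1249030, ILMN_2600421 and ILMN_2719256, and 2.39 for Prtn3. They were 1.51 for Ltf, 1.45 for Ngp, 1.85 for S100a8 and 2.54 for S100a9. For IL-1α against untreated they were 1.17 for Ctsg, 1.12 and 1.51 for the Mpo rows ILMN_1249030 and ILMN_2600421, 1.77 for Prtn3 and 0.89 for Camp. For retinoic acid against IL-1α they were 1.49 for Ctsg, 2.08, 2.15 and 1.05 for the Mpo rows in the order above, 1.16 for Ltf, 1.55 for Ngp, 1.62 for S100a8 and 1.78 for S100a9. Ctsg was below detection on both retinoic acid arrays of batch 1, so its fitted 2.66 and 1.49 rest on that signal, and with the batch 1 fall at its bound the differences were at least 2.46 and 1.28. The mouse line changed together with the batch, so the line and the batch cannot be told apart. Among 30 groups of 4 arrays, 0 held an array that stood apart from the other 3. Each group joined 2 arrays of each batch, so a gap between the batches can hide such an array. The usual rate of about 1 group in 20 therefore does not apply, and the count cannot show that no array was outlying.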

How the results depend on the processing

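The 9 differences in the retinoic acid effect between batches became 8 with no detection filter and stayed at 9 with no replicate block or with a fold change above 2 as well. The replicate block was kept because the methods state it, although whether same-numbered arrays are paired is not settled. With no replicate block, 7 rows were called for retinoic acid and 1 for IL-1α over both batches, and 6752 and 5702 of all rows. With neither batch nor replicate, 3 were called for retinoic acid, and 2215 of all rows. The IL-1α count of 0 became 1 with no background correction, with scaling to 1 median, with normalization within each batch and among rows detected on all 12 arrays. With no filter, 2 rows were called for retinoic acid against untreated and 4 against IL-1α, and the batches differed for 3 (IL-1α) and 5 (retinoic acid against IL-1α). A fold change above 2 as well left 4 for retinoic acid over both batches, with 1667 of all rows against 6436, and left 0 for IL-1α in batch 1 and 2 for each treatment in batch 2. Normalization within each batch left 6 untreated differences, where 12735 of all rows were called, with 0.18 for Mpo row ILMN_2719256 and 0.33 for S100a8. The IL-1α effect on Mpo row ILMN_2600421 turned to -0.0077 (scaling to 1 median), -0.029 (normalization within each batch) and -0.00082 (a larger offset), and S100a8 between retinoic acid and IL-1α in batch 2 to -0.25 (scaling to 1 median). The cause of these changes was not tested. Leaving out 1 array gave 4 to 7 calls for retinoic acid and 0 to 2 for IL-1α over both batches, 3 to 6 for retinoic acid in batch 2, 2 to 5 and 4 to 10 for IL-1α in batch 1 and batch 2, and differences between batches for 2 to 6 rows (IL-1α) and 5 to 8 (retinoic acid against IL-1α). Values that changed sign on leaving out 1 array were not called to begin with. Over both batches they ranged from -0.48 to 0.15 for S100a8 with retinoic acid, and with IL-1α from -0.25 to 0.56 and -0.43 to 0.46 for the brighter Mpo rows and -0.013 to 0.75 for Prtn3. Prtn3 between retinoic acid and IL-1α ranged from -0.29 to 0.29. In batch 1 S100a9 with IL-1α ranged from -0.15 to 0.044. In batch 2 the ranges with retinoic acid were -0.18 to 0.29 for Mpo row ILMN_2719256 and -0.38 to 0.23 for Ltf, and against IL-1α -0.046 to 0.18 for S100a8 and -0.36 to 0.012 for S100a9. The batch difference of the IL-1α effect on Ngp ranged from -0.32 to 0.13. Signal over background limits Ctsg and Mpo row ILMN_2719256, which were below detection on some retinoic acid arrays of batch 1.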
